A study of Mus musculus with 151 samples.

Results

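The ovaries described here came from 10 female mice conceived by IVF, 5 collected at 12 weeks of age and 5 at 39 weeks, and were 10 of the 151 samples of the study. They were chosen by their labels alone (conception by IVF, ovary, adult age), and all gene names present in both adult ovary count tables were used. The eggs came from superovulated CF-1 females and the sperm from B6/SJL males, the embryos were cultured to the blastocyst stage and transferred to pseudopregnant CF-1 females, and the pups were delivered by c-section and fostered. All 10 females shared this origin and ate standard chow, and the labels name no other treatment or allele in them. RNA from a piece of 1 ovary per female was sequenced after poly(A) selection, with at most 2 littermates taken from a litter. The 9 Natural ovaries (4 at 12 weeks and 5 at 39 weeks), from CF-1 females mated with B6/SJL males, were used only to compare the age change, and a label of 1 of them, 39-week replicate 5, gives 40 weeks against 39 in its title. The cycle stage of the females was not given in the labels. By the study's methods, adult females whose serum hormones were measured were killed at proestrus. Whether the females sequenced here were among them was not stated. All 12-week libraries stood in 1 count table and all 39-week libraries in another, so age and table cannot be told apart.

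The mouse ovary holds oocytes that grow inside follicles, where granulosa cells feed the oocyte and, with the theca cells around them, make estradiol. After ovulation the follicle wall becomes a corpus luteum that makes progesterone. The stock of oocytes is set around birth and shrinks with age, while macrophages, multinucleated giant cells and matrix are known to build up in the aging ovarian stroma.

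Total counts per library ranged from 2839022 to 43363799 at 12 weeks (median 22249337) and from 18660209 to 38751638 at 39 weeks (median 33279965). The lowest total was that of 12-week replicate 4. Levels below are in CPM, the counts of a gene relative to the size of its library, scaled by TMM to correct for library composition. Where 5 values are listed they are those of replicates 1 to 5, and means are given ± SD over the 5 libraries of an age. A gene was called when edgeR's quasi-likelihood test gave a Benjamini-Hochberg adjusted p below 0.05 over the 17449 genes that passed edgeR's filter on low counts. Log2 fold changes are 39 weeks against 12 weeks, so positive values are higher in the older ovaries, and the value after ± beside them is the standard error. By the study's methods the ovaries of a group came from separate animals of several litters, and the p-values measure the spread between them.

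Genes of the oviduct stood high in some libraries, which set these apart before any comparison. Ovgp1, the oviductal glycoprotein secreted by oviduct epithelium, read 2323, 2423, 2.32, 588 and 275 CPM at 12 weeks and 6695, 0.893, 13.2, 17.3 and 1.24 CPM at 39 weeks. Replicate 1 at 39 weeks was far above the other libraries, while 12-week replicate 3 lay among the low libraries of 39 weeks. The summed level of the 22 tested oviduct and cilia genes was 2718, 3039, 26.7, 869 and 896 CPM at 12 weeks and 9503, 26.9, 67.0, 55.6 and 32.9 CPM at 39 weeks. The ages overlapped only because of 39-week replicate 1 and 12-week replicate 3. Ovgp1 showed no called change over all 10 libraries (log2 fold change 0.26 ± 2.09, adjusted p = 0.966), but without 39-week replicate 1 its log2 fold change was -7.13 (adjusted p = 0.0352). In that fit 15 of the 22 oviduct genes were called lower (4.61% of all genes), with a median of -3.00. No oviduct marker sum was at 0, and the calls of genes named below that changed without that library are given beside them, with the counts of some lists.

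Fat and blood genes also varied. The 11 fat cell genes summed to 162, 168, 205, 518 and 3635 CPM at 12 weeks and to 182, 669, 403, 239.9 and 1884 CPM at 39 weeks. Replicate 5 was the highest at each age, and the ages overlapped. The 4 red blood cell genes summed to 35.2, 103, 77.7, 105 and 459.7 CPM at 12 weeks and to 783, 306, 117, 1685 and 575 CPM at 39 weeks, with overlapping ages. None was called over all 10 libraries, and 1 of 5 tested was called higher without 39-week replicate 1 (4.48% of all genes). Every library held ovarian transcripts, since the 30 oocyte genes summed to at least 312 CPM and Star, the protein that carries cholesterol into mitochondria for steroid synthesis, read 4454, 1604, 4616, 1276 and 4705 CPM at 12 weeks and 2259, 484, 3058, 3070.0 and 4205 CPM at 39 weeks.

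**Figure D1:**
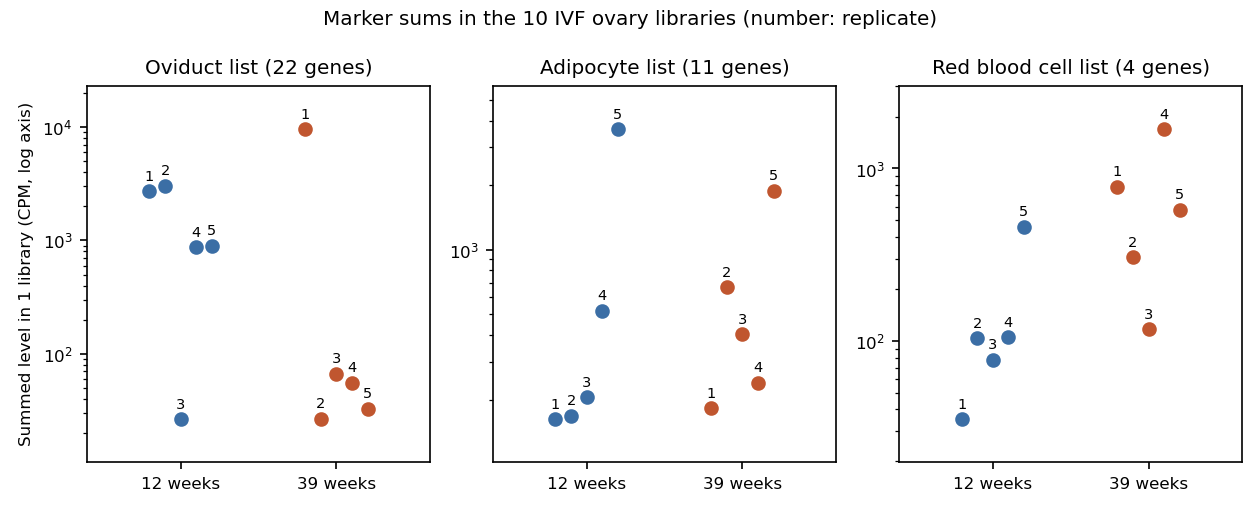
Summed level (CPM, log axis) of oviduct, fat cell and red blood cell genes in each of the 10 IVF libraries, 12 weeks beside 39 weeks, with 1 numbered point per replicate. The oviduct sum of 39-week replicate 1 (9503 CPM) stood above those of the other 39-week libraries (26.9 to 67.0 CPM).

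Between 12 and 39 weeks, 159 genes rose (0.911% of those tested) and 64 fell (0.367%). The smallest adjusted p was 0.0322, and 3393 genes (19.4%) had an unadjusted p below 0.05. The called changes were modest, with a median size of 0.61 on the log2 scale. For 220 of the 223 called genes the 5 values of one age did not overlap those of the other. Over all genes, all 39-week values lay above all 12-week values for 716 genes (4.1%) and below them for 448 (2.57%), and the median log2 fold change of all genes was 0.03. A positive log2 fold change was found for 53.6% of all genes.

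The number of calls rested on single libraries and on the settings. Without 39-week replicate 1 there were 798 higher (4.48%) and 820 lower (4.61%) genes of 17805 tested, and all 223 genes were among them. Leaving out 12-week replicate 1, 4 or 5, or 39-week replicate 4 or 5, gave 0 calls, and leaving out 12-week replicate 3 or 39-week replicate 3 gave 1. No gene was called in all 10 of these fits, while all 223 kept their direction in each of them. DESeq2 called 955 genes higher (5.97%) and 546 lower (3.42%). With upper quartile factors the split turned from mainly higher to mainly lower, with 42 genes higher and 70 lower. For this reason the direction, the size and, for the leading genes, the values in each library are given below beside the call. Each called gene named below kept its call in 1 to 3 of the 10 leave-one-out fits, the one without 39-week replicate 1 among them. Since none kept it in all 10, the genes with the largest changes were taken without that condition, after their values were seen.

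Oocyte transcripts were among those that fell. Of 30 tested genes of oocyte growth and the egg coat, 3 were called lower and 0 higher, against 0.367% lower among all genes. In this list 29 of 30 had a negative log2 fold change, while 53.6% of all genes had a positive one. The median of the list was -0.61 against 0.03 for all genes. In whole-ovary RNA, fewer oocytes and less RNA per oocyte cannot be told apart. The called genes were Zp2 and Zp3, which encode glycoproteins of the zona pellucida around the egg, and Npm2, a histone chaperone that the egg stores for the early embryo.

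Promoter sequence is shown for Zp3, for Padi6, an oocyte enzyme of the cytoplasmic lattices, and for Gpnmb, the macrophage gene described below, because Zp3 and Gpnmb were called and Padi6 was called once 39-week replicate 1 was left out. Each run is the 300 bases from 250 before to 50 after the RefSeq start site in GRCm38.p6, written along the gene's strand, with every E-box in capitals. An E-box is CANNTG, the motif of basic helix-loop-helix factors. In oocytes these include Figla, which is known to drive the zona genes.
Zp3 (chr5:135979855-135980154, plus strand): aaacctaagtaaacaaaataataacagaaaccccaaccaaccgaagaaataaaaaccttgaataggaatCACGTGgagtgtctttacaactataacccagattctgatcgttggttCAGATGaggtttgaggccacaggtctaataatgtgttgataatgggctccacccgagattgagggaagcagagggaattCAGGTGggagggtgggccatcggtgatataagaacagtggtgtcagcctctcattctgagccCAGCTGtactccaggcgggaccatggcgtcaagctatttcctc
Padi6 (chr4:140742594-140742893, minus strand): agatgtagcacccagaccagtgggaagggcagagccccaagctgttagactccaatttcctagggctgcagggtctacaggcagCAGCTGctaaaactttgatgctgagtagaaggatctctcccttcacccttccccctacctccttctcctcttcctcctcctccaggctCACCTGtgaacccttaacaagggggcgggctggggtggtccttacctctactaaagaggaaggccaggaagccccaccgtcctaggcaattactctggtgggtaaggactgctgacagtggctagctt
Gpnmb (chr6:49036268-49036567, plus strand): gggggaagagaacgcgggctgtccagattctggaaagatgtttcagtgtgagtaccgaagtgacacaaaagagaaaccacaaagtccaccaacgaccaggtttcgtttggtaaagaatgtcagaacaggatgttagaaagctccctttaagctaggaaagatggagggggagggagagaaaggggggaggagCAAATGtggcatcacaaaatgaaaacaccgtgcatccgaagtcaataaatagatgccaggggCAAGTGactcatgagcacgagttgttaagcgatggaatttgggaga
The first bases of the Zp3 E-boxes lay at -181, -134, -55 and 7 relative to the start site, and the one at -181 was CACGTG. Those of Padi6 lay at -166 and -78, and those of Gpnmb at -58 and 4. The motif reads the same on both strands, and it is common, since 72.1% of all 27025 promoters of this length held at least 1 and 7.24% held CACGTG. Among the oocyte genes with a promoter in the RefSeq table, 19 of 20 (95%) held an E-box and 2 (10%) held CACGTG. For the macrophage list pooled with the list of lipid-laden and multinucleated macrophages, 26 of 30 (86.7%) held an E-box. These matches are a description of letters and say nothing of binding.

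Zp2 read 33.1, 45.5, 83.9, 59.5 and 44.4 CPM at 12 weeks and 12.7, 27.0, 15.0, 26.4 and 18.7 CPM at 39 weeks. Every 39-week value lay below every 12-week value, and the mean fell from 53.3 ± 19.5 to 19.9 ± 6.51 CPM (log2 fold change -1.41 ± 0.29, adjusted p = 0.0462). Zp3 read 17.0, 30.4, 46.5, 41.8 and 26.6 CPM at 12 weeks and 7.57, 16.1, 7.53, 13.6 and 9.40 CPM at 39 weeks. The ages again did not overlap, and Zp3 fell by a similar amount (log2 fold change -1.57 ± 0.31, adjusted p = 0.0454). Npm2 read 9.87, 15.6, 22.7, 18.3 and 12.8 CPM at 12 weeks and 4.86, 8.11, 5.12, 7.79 and 5.38 CPM at 39 weeks, also without overlap (log2 fold change -1.33 ± 0.26, adjusted p = 0.0431). Each of the 3 calls held in 1 of the 10 leave-one-out fits, the one without 39-week replicate 1, with log2 fold changes of -1.55 to -1.18 for Zp2, -1.76 to -1.40 for Zp3 and -1.47 to -1.17 for Npm2. Khdc1c, an egg-enriched gene of a family with near-identical copies, fell too (log2 fold change -2.60 ± 0.53, adjusted p = 0.0473), and its level is uncertain for that reason.

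Other oocyte genes lay lower on average without passing the test over all 10 libraries. Gdf9, the growth factor by which the oocyte directs its granulosa cells, read 40.7, 56.7, 97.1, 87.6 and 56.8 CPM at 12 weeks and 38.9, 48.5, 24.5, 64.0 and 38.8 CPM at 39 weeks, and the ages overlapped (log2 fold change -0.65 ± 0.28, adjusted p = 0.245). Nlrp5 (log2 fold change -1.18 ± 0.26, adjusted p = 0.0577), a maternal gene of the subcortical complex, had no overlap between ages. Padi6 (log2 fold change -1.12 ± 0.27, adjusted p = 0.0718) and Zp1 (log2 fold change -1.35 ± 0.36, adjusted p = 0.0924) did overlap. Figla, a transcription factor of the zona genes, had a log2 fold change of -1.19 ± 0.45 (adjusted p = 0.176), and Dppa3, a maternal factor of early development, one of -1.12 ± 0.29 (adjusted p = 0.0855). Without 39-week replicate 1, 6 oocyte genes were called lower, in a fit that called 4.61% of all genes lower. The adjusted p was 0.0344 for Nlrp5, 0.0421 for Padi6 and 0.0431 for Figla, and the median of the list was -0.71. The summed level of the list was 522 to 1146 CPM at 12 weeks and 312 to 653 CPM at 39 weeks.

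Among 9 tested genes of small-follicle oocytes and germ cells, 0 were called in either direction and the median was -0.46. Ddx4, an RNA helicase of germ cells, had a log2 fold change of -0.84 ± 0.34 (adjusted p = 0.209), and Lhx8, a transcription factor of primordial and primary oocytes, one of -0.42 ± 0.35 (adjusted p = 0.567). The meiotic genes Hfm1 and Spata22 had at most 10 and 17 counts in any of these libraries and were not tested, and most exon bases of Spata22 are shared with another annotated gene.

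**Figure D2:**
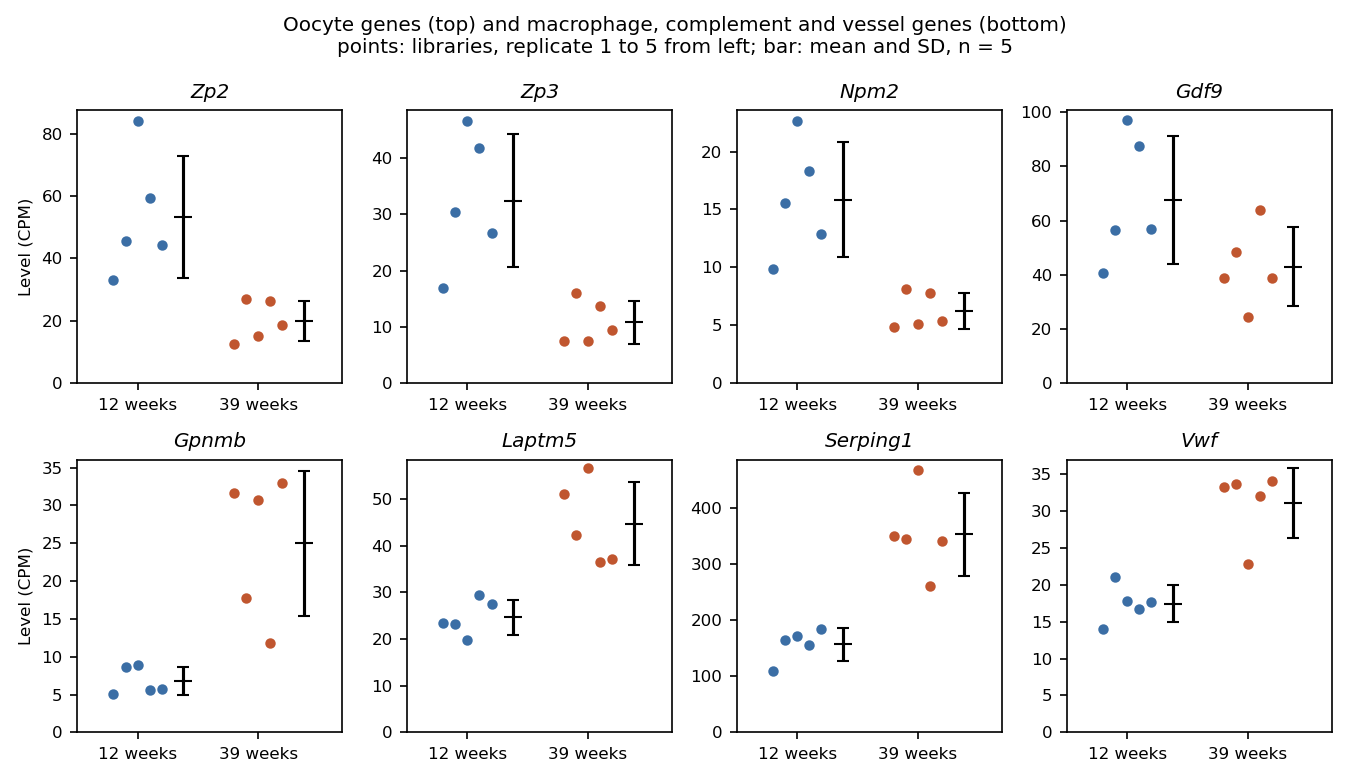
Level (CPM, axis from 0) in each IVF library at 12 and 39 weeks for the oocyte genes Zp2, Zp3, Npm2 and Gdf9 and for Gpnmb, Laptm5, Serping1 and Vwf, with 1 point per library and a bar for mean and SD (n = 5). Zp2, Zp3 and Npm2 did not overlap between ages and were lower at 39 weeks, the 4 genes of the second row did not overlap and were higher, and Gdf9 overlapped.

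The somatic compartments of the follicle gave few calls. Granulosa genes of growing follicles (20 tested), ovulation genes (15), luteal genes (15) and theca and interstitial genes (12) held 0 called genes, with medians of -0.13, -0.27, 0.18 and -0.05, and the granulosa median was 0.08 without 39-week replicate 1. In that fit 2 granulosa genes and 2 ovulation genes were called lower (4.61% of all genes) and 2 luteal genes higher (4.48%), the latter being Lhcgr and Hsd17b7, described below. With the oviduct level as a covariate, 4 granulosa genes were called lower (2.64% of all genes), with a granulosa median of -0.54, and 0 luteal genes were called. Amh, which granulosa cells of small growing follicles secrete, had a log2 fold change of -0.61 ± 0.29 (adjusted p = 0.285), and Fshr, the FSH receptor, one of -0.13 ± 0.43 (adjusted p = 0.918). The ovulation genes Pgr, the progesterone receptor, and Has2, which makes the hyaluronan of the expanding cumulus, had log2 fold changes of -0.37 ± 0.46 (adjusted p = 0.735) and -0.29 ± 0.49 (adjusted p = 0.814). Star levels, listed above, overlapped between ages (log2 fold change -0.35 ± 0.54, adjusted p = 0.792).

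Luteal and theca genes varied widely between libraries. Ptgfr, the receptor through which prostaglandin F2 alpha ends luteal life, had a log2 fold change of -0.65 ± 0.73 (adjusted p = 0.696), and Akr1c18, the enzyme that inactivates progesterone, one of -1.54 ± 0.97 (adjusted p = 0.430). Cyp17a1, which makes androgens in theca cells, had a log2 fold change of -0.94 ± 1.62 (adjusted p = 0.821). The value of Insl3, a theca hormone, was -0.93 ± 0.75 (adjusted p = 0.556), and its exons overlap those of Jak3 on the same strand over 64.8% of their length. Lhcgr, the LH receptor of theca, luteal and mature granulosa cells, read 62.0, 54.0, 27.7, 161 and 145 CPM at 12 weeks and 57.1, 457, 420.5, 303 and 275 CPM at 39 weeks. All older ovaries but 39-week replicate 1 lay above all younger ones, and the gene was not called (log2 fold change 1.76 ± 0.58, adjusted p = 0.135), while without that replicate its log2 fold change was 2.03 (adjusted p = 0.0265). With the oviduct level as a covariate the log2 fold change of Lhcgr was 0.93 (adjusted p = 0.443). Hsd17b7, an enzyme of estradiol and cholesterol synthesis, had a log2 fold change of 2.24 ± 0.74 (adjusted p = 0.137) in all libraries and 2.53 (adjusted p = 0.0286) without 39-week replicate 1. With the oviduct covariate its value was 1.16 (adjusted p = 0.455). Its ages overlapped, and the level was high in 39-week replicates 3, 4 and 5.

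Of 13 hormone receptors, 1 was called higher (0.911% of all genes) and 0 lower, with a median of 0.41, or 0.17 after the transcript length correction described below. Without 39-week replicate 1 the median was 0.19, and 3 were called higher (4.48% of all genes). Esr1, estrogen receptor alpha, read 91.8, 134, 41.2, 103 and 114 CPM at 12 weeks and 267, 104, 141, 113 and 85.6 CPM at 39 weeks. The ages overlapped, 39-week replicate 1 was the highest library, and Esr1 was not called (log2 fold change 0.55 ± 0.35, adjusted p = 0.438). The log2 fold change of Esr1 was 0.19 without that library and 1.00 (adjusted p = 0.0186) with the oviduct level as a covariate, which called 522 genes higher (2.99%) and 460 lower (2.64%). For Esr2, the estrogen receptor of granulosa cells, the value was -0.37 ± 0.33 (adjusted p = 0.607).

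Cell cycle genes lay lower on average, though no member passed the test without a covariate. All 30 tested genes of S phase and mitosis had a negative log2 fold change, while 53.6% of all genes had a positive one. The median of the list was -0.45, and 0 were called in either direction. With the oviduct level as a covariate 6 were called lower (2.64% of all genes), with a median of -0.57. DESeq2 called 4 of them lower (3.42% of all genes). Cdk1, the kinase that drives entry into mitosis, read 27.8, 31.1, 50.4, 32.0 and 15.2 CPM at 12 weeks and 9.88, 18.9, 17.9, 14.8 and 18.47 CPM at 39 weeks. The ages overlapped through 12-week replicate 5 (log2 fold change -0.96 ± 0.29, adjusted p = 0.115). With the oviduct level as a covariate Cdk1 was called lower (-1.24, adjusted p = 0.0215). Birc5, a protein of the mitotic chromosome passenger complex, had a log2 fold change of -0.89 ± 0.28 (adjusted p = 0.126), Top2a, the topoisomerase of dividing cells, one of -0.55 ± 0.34 (adjusted p = 0.418), and the proliferation marker Mki67 one of -0.21 ± 0.35 (adjusted p = 0.811).

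Macrophage genes lay higher on average at 39 weeks. Of 20 tested genes, 1 was called higher (0.911% of all genes) and 0 lower. A positive log2 fold change was found for 19 (53.6% of all genes), and the median was 0.50 against 0.03 for all genes. Their summed level was 422 to 535 CPM at 12 weeks and 587 to 948 CPM at 39 weeks, without overlap. Laptm5, a lysosomal membrane protein of blood-derived cells, read 23.5, 23.2, 19.8, 29.4 and 27.4 CPM at 12 weeks and 51.1, 42.2, 56.6, 36.6 and 37.1 CPM at 39 weeks. No older ovary fell within the younger range, and Laptm5 rose (log2 fold change 0.86 ± 0.16, adjusted p = 0.0383), a call that held in 1 of the 10 leave-one-out fits. Csf1r, the receptor for the macrophage growth factor CSF1, read 29.2, 36.9, 30.8, 38.2 and 40.0 CPM at 12 weeks and 45.3, 70.5, 59.8, 58.1 and 46.5 CPM at 39 weeks. The ages did not overlap, but the gene just missed the threshold (log2 fold change 0.68 ± 0.14, adjusted p = 0.0507), and its exons overlap those of Hmgxb3 on the opposite strand over 15.1% of their length.

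Several other macrophage genes stood near the threshold. Mpeg1, the pore-forming protein of macrophages, had a log2 fold change of 0.90 ± 0.19 (adjusted p = 0.0504), and Cd68, a lysosomal marker, one of 0.58 ± 0.15 (adjusted p = 0.0870). For C1qa, a chain of complement C1q, the value was 0.51 ± 0.12 (adjusted p = 0.0638), for C1qb 0.62 ± 0.17 (adjusted p = 0.0924) and for Ctss, a lysosomal protease, 0.75 ± 0.20 (adjusted p = 0.0900). Without 39-week replicate 1, 5 of the 20 macrophage genes were called higher (4.48% of all genes), among them Csf1r (adjusted p = 0.0217), Mpeg1 (adjusted p = 0.0202), Cd68 (adjusted p = 0.0426) and C1qa (adjusted p = 0.0297). The 4 red blood cell genes moved the same way, with a median of 1.94, and their part in the macrophage result was not tested.

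Gpnmb had the largest rise among the called genes whose ages did not overlap and whose mean reached 10 CPM. It encodes a lysosomal glycoprotein of lipid-laden macrophages, osteoclasts and melanocytes. Gpnmb read 5.13, 8.63, 8.86, 5.55 and 5.73 CPM at 12 weeks and 31.6, 17.8, 30.8, 11.8 and 33.0 CPM at 39 weeks. Even the lowest older ovary exceeded the highest younger one, and the mean rose from 6.78 ± 1.81 to 25.0 ± 9.58 CPM (log2 fold change 1.88 ± 0.31, adjusted p = 0.0339). The call held in 3 of the 10 leave-one-out fits, and over them the log2 fold change ran from 1.76 to 2.06. Of the 19 genes of lipid-laden and multinucleated macrophages it was the only one called (0.911% of all genes were called higher). The list's median was 0.07, or -0.03 without 39-week replicate 1. Trem2, a lipid receptor of such macrophages, had a log2 fold change of -0.32 ± 0.20 (adjusted p = 0.430).

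Among 24 complement, cytokine and chemokine genes, 1 was called higher (0.911% of all genes) and the median was 0.30. That gene was Serping1, the C1 inhibitor that restrains the classical complement pathway, which read 108, 165, 172, 156 and 185 CPM at 12 weeks and 349, 344, 467, 259.8 and 341 CPM at 39 weeks. The ages were well apart, and Serping1 rose from 157 ± 29.3 to 352 ± 74.2 CPM (log2 fold change 1.16 ± 0.18, adjusted p = 0.0322), with the call held in 3 of the 10 leave-one-out fits. C3, the central complement component, read 491, 1016, 141, 338 and 939 CPM at 12 weeks and 4508, 225, 278, 151 and 911 CPM at 39 weeks. The level in 39-week replicate 1 exceeded all others, and the log2 fold change went from 1.05 ± 0.93 (adjusted p = 0.597) to -0.60 (adjusted p = 0.591) without it. Ccl2, the chemokine that attracts monocytes, had a log2 fold change of 1.36 ± 0.90 (adjusted p = 0.456). Il6st, the shared receptor subunit of the interleukin 6 family, rose (log2 fold change 0.70 ± 0.11, adjusted p = 0.0322) but was chosen after its values were seen.

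Lymphocyte genes (19 tested), plasma cell genes (6), MHC class II genes (9) and interferon-induced genes (20) held 0 called genes, with medians of 0.25, 0.39, 0.37 and -0.10. Cd3e, a chain of the T cell receptor complex, did not overlap between ages and had a log2 fold change of 1.32 ± 0.35 (adjusted p = 0.0897), with an adjusted p of 0.0444 without 39-week replicate 1. In that fit 2 of 20 tested lymphocyte genes were called higher (4.48% of all genes). Cd79a, of the B cell receptor, had one of -0.17 ± 0.40 (adjusted p = 0.870), and Jchain, of secreted antibodies, one of 0.51 ± 0.81 (adjusted p = 0.801). Cd74, the class II invariant chain, had a value of 0.60 ± 0.26 (adjusted p = 0.238) and H2-Ab1 one of 0.37 ± 0.35 (adjusted p = 0.627). The interferon-induced genes Isg15 and Ifit1 had values of -0.73 ± 0.37 (adjusted p = 0.313) and 0.11 ± 0.31 (adjusted p = 0.898).

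Vessel genes gave 1 call, higher (0.911% of all genes), among 16 endothelial genes, with a median of 0.13. Vwf, the clotting glycoprotein that endothelial cells store, read 14.0, 21.0, 17.7, 16.7 and 17.7 CPM at 12 weeks and 33.2, 33.6, 22.8, 32.0 and 34.0 CPM at 39 weeks. The lowest older value, that of replicate 3, still lay above all younger ones, and Vwf rose (log2 fold change 0.84 ± 0.15, adjusted p = 0.0383), with the call held in 2 of the 10 leave-one-out fits. Pecam1 (log2 fold change 0.13 ± 0.14, adjusted p = 0.675) and Cdh5 (log2 fold change 0.17 ± 0.16, adjusted p = 0.624), adhesion proteins of all endothelial cells, were not called. Without 39-week replicate 1, 4 of the 16 endothelial genes were called higher (4.48% of all genes), among them Flt1 (0.74, adjusted p = 0.0241), Kdr (0.51, adjusted p = 0.0252) and Tie1 (0.47, adjusted p = 0.0315), which encode receptors for vascular growth factors or partner with them. Of the 16 genes, 4 had negative values, among them Egfl7, a protein that endothelial cells secrete, with -0.53 ± 0.17 (adjusted p = 0.130) in all libraries and -0.70 (adjusted p = 0.0412) with the oviduct level as a covariate. Podxl, a sialomucin of endothelial and other lining cells, rose (log2 fold change 0.96 ± 0.15, adjusted p = 0.0322) and was chosen after its values were seen.

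Notch3, a receptor of mural cells and granulosa cells, read 39.1, 43.0, 36.0, 33.3 and 33.5 CPM at 12 weeks and 70.0, 48.8, 82.1, 52.6 and 85.2 CPM at 39 weeks. The ages did not overlap, and Notch3 rose (log2 fold change 0.87 ± 0.17, adjusted p = 0.0407), with the call held in 2 of the 10 leave-one-out fits. Of 13 Notch receptors, ligands and targets it was the only one called (0.911% of all genes were called higher), and the median of that list was 0.15. Notch4, an endothelial receptor, had a log2 fold change of 0.57 ± 0.19 (adjusted p = 0.135), or 0.68 (adjusted p = 0.0269) without 39-week replicate 1. The Notch list, like the lists below on insulin signalling, mTOR, coregulators, chromatin, RNA processing and noncoding RNAs, was drawn up after values were seen and only describes them.

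Matrix genes gave no call as a group. Collagens (26 tested), matrix proteases and crosslinking enzymes (29), stromal genes (15), smooth muscle genes (12) and lymphatic genes (6) held 0 called genes, with medians of 0.06, 0.06, -0.03, -0.16 and 0.02. The positive medians of collagens and matrix enzymes turned negative with upper quartile factors and without 39-week replicate 1. In the latter fit 1 collagen was called lower (4.61% of all genes) and 1 lymphatic gene higher (4.48%). Col1a1 (log2 fold change 0.07 ± 0.31, adjusted p = 0.934) and Col4a1 (log2 fold change -0.02 ± 0.19, adjusted p = 0.969), chains of fibrillar and basement membrane collagen, had log2 fold changes near 0. Acta2, smooth muscle actin, had one of -0.49 ± 0.25 (adjusted p = 0.314), Lox, which crosslinks collagen, one of -0.36 ± 0.41 (adjusted p = 0.706), and the protease Mmp2 one of 0.06 ± 0.26 (adjusted p = 0.932). Among the called genes outside these lists were Mmp15 and Eln, which moved in opposite directions. Mmp15, a membrane-anchored matrix metalloproteinase, read 31.9, 44.1, 24.1, 24.5 and 29.8 CPM at 12 weeks and 128, 59.5, 59.7, 74.8 and 82.2 CPM at 39 weeks. Replicate 1 was the highest older library, the ages did not overlap, and Mmp15 rose (log2 fold change 1.38 ± 0.24, adjusted p = 0.0383). Eln, the elastin of elastic fibres, fell (log2 fold change -0.68 ± 0.14, adjusted p = 0.0473).

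Cholesterol genes mostly had positive changes. Of 25 tested genes of synthesis and uptake, 2 were called higher (0.911% of all genes) and 0 lower. A positive log2 fold change was found for 23 (53.6% of all genes). The median of the list was 0.43, or 0.17 with the oviduct level as a covariate. Srebf2, the transcription factor that switches on cholesterol synthesis, rose (log2 fold change 0.53 ± 0.10, adjusted p = 0.0412), a call that held in 1 of the 10 leave-one-out fits with log2 fold changes of 0.49 to 0.59. It read 199.6, 163, 150.2, 183 and 152 CPM at 12 weeks and 249, 229, 227, 251 and 267 CPM at 39 weeks, and the ages did not overlap.

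Genes of insulin and growth factor signalling rose in several places. Of 21 tested genes, 4 were called higher (0.911% of all genes) and 0 lower, with a median of 0.37, or 0.18 after the transcript length correction described below. Irs2, an adaptor of the insulin receptor, read 6.48, 10.2, 10.3, 7.84 and 11.9 CPM at 12 weeks and 16.1, 18.9, 18.9, 26.8 and 22.5 CPM at 39 weeks, without overlap (log2 fold change 1.14 ± 0.21, adjusted p = 0.0383). Sesn3, a stress protein that restrains mTORC1, read 20.7, 22.3, 11.8, 16.3 and 13.6 CPM at 12 weeks and 26.8, 36.9, 46.5, 44.6 and 83.1 CPM at 39 weeks. Its older values spread widely, with replicate 5 the highest, but none reached down to the younger range (log2 fold change 1.48 ± 0.30, adjusted p = 0.0462). Foxo3, the transcription factor that holds primordial follicles at rest and is present in other ovarian cells too, read 111, 121, 96.3, 110.4 and 105 CPM at 12 weeks and 189, 157, 159.6, 211 and 170.3 CPM at 39 weeks, again without overlap (log2 fold change 0.70 ± 0.10, adjusted p = 0.0322). Akt2, a kinase downstream of the insulin receptor, rose as well (log2 fold change 0.47 ± 0.10, adjusted p = 0.0485), while Akt1 was not called (log2 fold change 0.38 ± 0.10, adjusted p = 0.0777) except without 39-week replicate 1 (0.42, adjusted p = 0.0251). The calls held in 1 of the 10 leave-one-out fits for Irs2, 1 for Sesn3, 3 for Foxo3 and 1 for Akt2.

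Among 19 genes of the mTOR complexes and the translation factors below them, 4 were called higher (0.911% of all genes) and 0 lower, with a median of 0.24, or 0.09 after the length correction. Mtor, the kinase of both complexes, read 75.5, 73.3, 71.7, 64.0 and 77.1 CPM at 12 weeks and 100.0, 88.7, 117, 109 and 130.3 CPM at 39 weeks. The groups did not overlap, and Mtor rose (log2 fold change 0.59 ± 0.11, adjusted p = 0.0383). The other called genes were Eef2, the translation elongation factor (log2 fold change 0.74 ± 0.12, adjusted p = 0.0339), Eif4ebp2, a translation repressor that mTORC1 inactivates (log2 fold change 0.59 ± 0.11, adjusted p = 0.0383), and Eif4b, an initiation factor (log2 fold change 0.52 ± 0.10, adjusted p = 0.0430). Cytosolic ribosomal protein genes held 0 calls among 81, with 75 positive log2 fold changes (53.6% of all genes) and a median of 0.29. Rpl3 had a value of 0.42 ± 0.13 (adjusted p = 0.127) and Rps6 one of 0.27 ± 0.12 (adjusted p = 0.254).

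Glucose uptake and glycolysis genes (22 tested) held 0 called genes, with a median of 0.17. Slc2a1, the glucose transporter GLUT1, read 40.6, 52.4, 32.9, 37.6 and 37.2 CPM at 12 weeks and 86.7, 54.8, 36.2, 33.1 and 33.3 CPM at 39 weeks. Replicate 1 was the highest older library and the ages overlapped (log2 fold change 0.28 ± 0.27, adjusted p = 0.642), and without it the log2 fold change was -0.04. Ldha, which makes lactate, had one of 0.11 ± 0.21 (adjusted p = 0.843). G6pdx, which opens the pentose phosphate pathway, rose (log2 fold change 0.48 ± 0.07, adjusted p = 0.0322) and was chosen after its values were seen.

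Nuclear receptor coregulators showed 7 called genes of 14, all higher (0.911% of all genes), with a median of 0.47, or 0.28 after the length correction. Ep300, a histone acetyltransferase that serves as a coactivator, read 98.0, 112, 90.2, 79.4 and 112 CPM at 12 weeks and 122, 151, 147, 159 and 171 CPM at 39 weeks, without overlap (log2 fold change 0.61 ± 0.12, adjusted p = 0.0454). The coactivators Ncoa1 (log2 fold change 0.48 ± 0.10, adjusted p = 0.0462), Ncoa2 (log2 fold change 0.49 ± 0.10, adjusted p = 0.0473) and Ncoa3 (log2 fold change 0.46 ± 0.10, adjusted p = 0.0481) rose by similar amounts. So did the corepressor Ncor1 (log2 fold change 0.56 ± 0.10, adjusted p = 0.0383), and Spen, a large corepressor that also binds RNA, rose more (log2 fold change 0.89 ± 0.16, adjusted p = 0.0383).

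Chromatin genes had 7 calls of 42, all higher (0.911% of all genes), with a median of 0.29, or 0.14 after the length correction. They included Kat6a, a histone acetyltransferase (log2 fold change 0.74 ± 0.13, adjusted p = 0.0383), and Ehmt2, a histone H3 methyltransferase (log2 fold change 0.41 ± 0.08, adjusted p = 0.0473). Genes of microRNA processing and silencing had 4 calls of 11, all higher (0.911% of all genes), with a median of 0.36, or 0.24 after that correction. Ago2, the Argonaute that cuts target RNA, read 36.3, 43.0, 35.2, 31.4 and 45.1 CPM at 12 weeks and 60.4, 62.1, 68.9, 86.3 and 119 CPM at 39 weeks. The ages did not overlap (log2 fold change 1.05 ± 0.19, adjusted p = 0.0383). Tnrc6b (log2 fold change 0.57 ± 0.09, adjusted p = 0.0339) and Tnrc6c (log2 fold change 0.59 ± 0.09, adjusted p = 0.0322), scaffolds of the silencing complex, and Xpo5, the exporter of microRNA precursors (log2 fold change 0.45 ± 0.09, adjusted p = 0.0462), rose too.

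Several noncoding RNAs were among the genes that fell. Carmn, a long noncoding RNA of smooth muscle, read 10.1, 23.3, 12.6, 21.6 and 20.6 CPM at 12 weeks and 5.31, 7.75, 5.30, 5.24 and 5.75 CPM at 39 weeks. All older values lay below all younger ones, and Carmn fell (log2 fold change -1.58 ± 0.26, adjusted p = 0.0339). Bvht, a noncoding RNA known from the heart lineage, fell alike (log2 fold change -1.51 ± 0.26, adjusted p = 0.0383), as did Gt(ROSA)26Sor, the transcript of the Rosa26 locus (log2 fold change -1.44 ± 0.27, adjusted p = 0.0383). Rian, a noncoding RNA of the imprinted Dlk1-Dio3 region that is expressed from the maternal chromosome, read 26.1, 39.2, 37.4, 23.5 and 19.5 CPM at 12 weeks and 6.55, 16.5, 12.6, 9.81 and 10.4 CPM at 39 weeks. There was no overlap (log2 fold change -1.38 ± 0.27, adjusted p = 0.0445). Its neighbour Mirg fell (log2 fold change -1.91 ± 0.38, adjusted p = 0.0450), and Meg3 of the same region just missed the threshold (log2 fold change -1.37 ± 0.29, adjusted p = 0.0507), which it passed without 39-week replicate 1 (-1.22, adjusted p = 0.0250).

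All 16 tested small nucleolar RNA host genes had negative log2 fold changes (53.6% of all genes had positive ones), with 3 called lower (0.367% of all genes). The median was -0.89, or -0.73 after the transcript length correction described below. Snhg1 read 39.2, 39.5, 40.5, 42.5 and 31.2 CPM at 12 weeks and 14.5, 19.8, 28.5, 20.2 and 20.3 CPM at 39 weeks. The highest older value, in replicate 3, stayed below the lowest younger one (log2 fold change -0.90 ± 0.17, adjusted p = 0.0395). Snhg14, whose region is imprinted (log2 fold change -1.70 ± 0.28, adjusted p = 0.0339), and Snhg20 (log2 fold change -1.27 ± 0.27, adjusted p = 0.0490) fell as well. Other called noncoding RNAs were Mir17hg, the host of the miR-17 cluster (log2 fold change -1.79 ± 0.33, adjusted p = 0.0383), Dancr (log2 fold change -1.49 ± 0.31, adjusted p = 0.0473) and the X-linked Firre (log2 fold change -0.94 ± 0.16, adjusted p = 0.0339).

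Some genes of splicing and RNA-binding proteins fell. Of 11 SR splicing factors, 1 was called lower (0.367% of all genes), with a median of -0.46, or -0.43 after the transcript length correction described below. Of 20 heterogeneous nuclear ribonucleoproteins, 2 were called lower and 5 had positive values, with a median of -0.17, or -0.18 after that correction. Srsf5, an SR factor, read 249, 297, 288, 278 and 197 CPM at 12 weeks and 103, 135, 183, 137 and 116 CPM at 39 weeks. The ages did not overlap (log2 fold change -0.96 ± 0.17, adjusted p = 0.0383). Hnrnpa2b1, an RNA-binding protein, read 895, 917, 1055, 1074 and 859.7 CPM at 12 weeks and 538, 727, 634, 589 and 701 CPM at 39 weeks, also without overlap (log2 fold change -0.59 ± 0.12, adjusted p = 0.0466), and its relative Hnrnpdl fell more (log2 fold change -0.91 ± 0.15, adjusted p = 0.0341). Outside these lists, Luc7l3 (log2 fold change -0.68 ± 0.10, adjusted p = 0.0322), Rsrp1 (log2 fold change -0.79 ± 0.14, adjusted p = 0.0383), Arglu1 (log2 fold change -0.78 ± 0.15, adjusted p = 0.0445) and Pnisr (log2 fold change -0.76 ± 0.15, adjusted p = 0.0462), which have roles in or links to splicing, fell, and so did Ewsr1, an RNA-binding protein (log2 fold change -0.56 ± 0.11, adjusted p = 0.0407). The nuclear poly(A)-binding protein Pabpn1 (log2 fold change -0.91 ± 0.15, adjusted p = 0.0335) fell too, but its exons overlap another annotated gene over 21.4% of their length.

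Transcript length moved with the age change. Genes called higher had a median transcript length of 6459 bases and genes called lower one of 2006, against 2993 for all tested genes with a known length (15955 genes, 91.4%). With genes cut into 5 length classes of equal number, the median log2 fold change from the shortest class to the longest was -0.10, -0.06, 0.02, 0.08 and 0.22, and the share called higher went from 0.0627% to 3.54%. In Natural ovaries the same classes had medians of -0.17, -0.11, -0.01, 0.08 and 0.24. After a correction of each library for transcript length, 0 genes were called and all 223 kept their sign. The source of this relation to length was not tested.

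**Figure D3:**
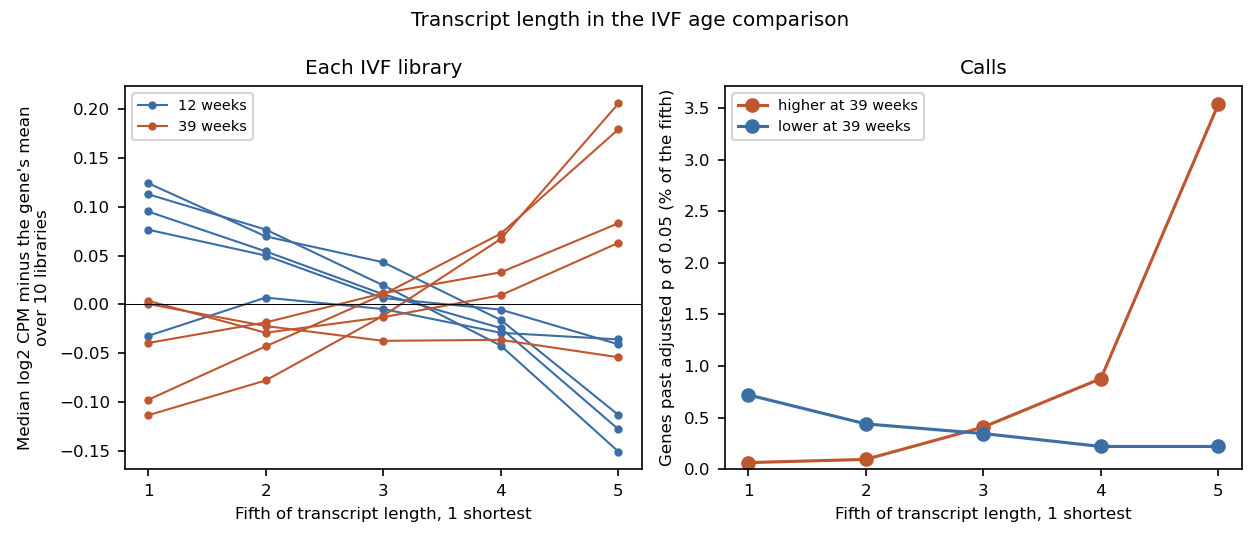
Left, median over genes of log2 CPM minus the gene's mean over the 10 IVF libraries, by length class from shortest (1) to longest (5), with 1 line per library. Right, share of genes called higher or lower at 39 weeks (%) in each class, with the share called higher at 0.0627% in the shortest and 3.54% in the longest.

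Genes with the largest changes outside these groups were a mixed set. Pcnx2, a membrane protein, read 8.70, 9.65, 7.76, 8.17 and 11.0 CPM at 12 weeks and 19.3, 14.2, 23.4, 25.7 and 26.4 CPM at 39 weeks, without overlap (log2 fold change 1.26 ± 0.19, adjusted p = 0.0322). Aak1, a kinase of clathrin adaptors, read 11.7, 13.3, 11.8, 8.49 and 14.9 CPM at 12 weeks and 19.2, 22.8, 25.4, 28.8 and 40.0 CPM at 39 weeks, also without overlap (log2 fold change 1.17 ± 0.22, adjusted p = 0.0383). Ppm1l, a protein phosphatase, read 58.3, 50.3, 45.3, 54.9 and 69.8 CPM at 12 weeks and 82.5, 110.1, 164, 89.5 and 159 CPM at 39 weeks. All older ovaries were above all younger ones (log2 fold change 1.12 ± 0.21, adjusted p = 0.0400). Among the falls, the agouti gene a, which encodes a signal that turns pigment cells to yellow pigment, read 14.2, 17.9, 36.3, 13.1 and 32.5 CPM at 12 weeks and 3.50, 4.67, 3.93, 11.3 and 5.38 CPM at 39 weeks, and only 39-week replicate 4 came near the younger range (log2 fold change -1.99 ± 0.41, adjusted p = 0.0473). The calls held in 3 of the 10 leave-one-out fits for Pcnx2 and in 1 for each of Aak1, Ppm1l and a.

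The outer ends of the range of called changes belonged to genes whose ages overlapped. Kcnd2, a voltage-gated potassium channel, had the largest called rise and read 6.91, 9.75, 6.65, 6.53 and 7.07 CPM at 12 weeks and 6.78, 39.8, 44.7, 47.7 and 31.8 CPM at 39 weeks. All older ovaries were high except 39-week replicate 1, which lay within the younger range (log2 fold change 2.20 ± 0.42, adjusted p = 0.0413). Olfr1033, an olfactory receptor gene, had the largest called fall and read 21.8, 20.1, 0.504, 13.7 and 20.9 CPM at 12 weeks and 0.791, 0.341, 0.823, 1.01 and 0.526 CPM at 39 weeks. Replicate 3, the 12-week library with little oviduct, was as low as the older ovaries (log2 fold change -4.47 ± 0.78, adjusted p = 0.0383). The library highest in oviduct genes, 39-week replicate 1, was low too, at 0.791 CPM. With the oviduct level as a covariate neither gene was called (1.51, adjusted p = 0.0741 for Kcnd2 and -3.36, adjusted p = 0.0618 for Olfr1033). The causes of these patterns were not tested.

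Markers of stress and cell aging gave no call over all 10 libraries. Genes used as senescence markers (15 tested), antioxidant enzymes (26), heat shock genes (15), immediate early genes (19) and clock genes (19) held 0 calls, with medians of -0.04, 0.15, 0.34, -0.10 and 0.24. The cell cycle inhibitors Cdkn2a and Cdkn1a had log2 fold changes of 1.40 ± 0.52 (adjusted p = 0.173) and -0.94 ± 0.33 (adjusted p = 0.157), and without 39-week replicate 1 Cdkn1a was called lower (-1.16, adjusted p = 0.0487), 1 of the 15 senescence markers. In that fit 1 immediate early gene and 1 heat shock gene were called higher, against 4.48% higher and 4.61% lower among all genes. Sod2, the mitochondrial superoxide dismutase, had one of 0.31 ± 0.19 (adjusted p = 0.402) and Gpx1, a glutathione peroxidase, one of 0.01 ± 0.18 (adjusted p = 0.985). Hspa8, a constitutive chaperone, had a value of 0.68 ± 0.19 (adjusted p = 0.0934), and Fos, an immediate early gene that rises during tissue handling, one of -0.10 ± 0.21 (adjusted p = 0.865).

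Mitochondrial genes did not separate the ages. The 13 protein-coding genes of the mitochondrial genome took 2.32 ± 0.44% of counts at 12 weeks and 2.53 ± 0.41% at 39 weeks (SD, n = 5 each). Of these genes 7 passed the filter and 0 were called, with a median of 0.20. Of 74 nuclear subunits of the respiratory complexes 0 were called and the median was -0.00. Ndufs1, of complex I, had a log2 fold change of -0.03 ± 0.10 (adjusted p = 0.900) and Cox4i1, of complex IV, one of 0.17 ± 0.15 (adjusted p = 0.586). Ovarian surface epithelium and mesothelium genes (14 tested, 0 called) had a median of 0.70, which was -0.10 without 39-week replicate 1, and Rmrp, a short RNA made by RNA polymerase III, had a value of 0.05 ± 0.43 (adjusted p = 0.969).

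**Figure D4:**
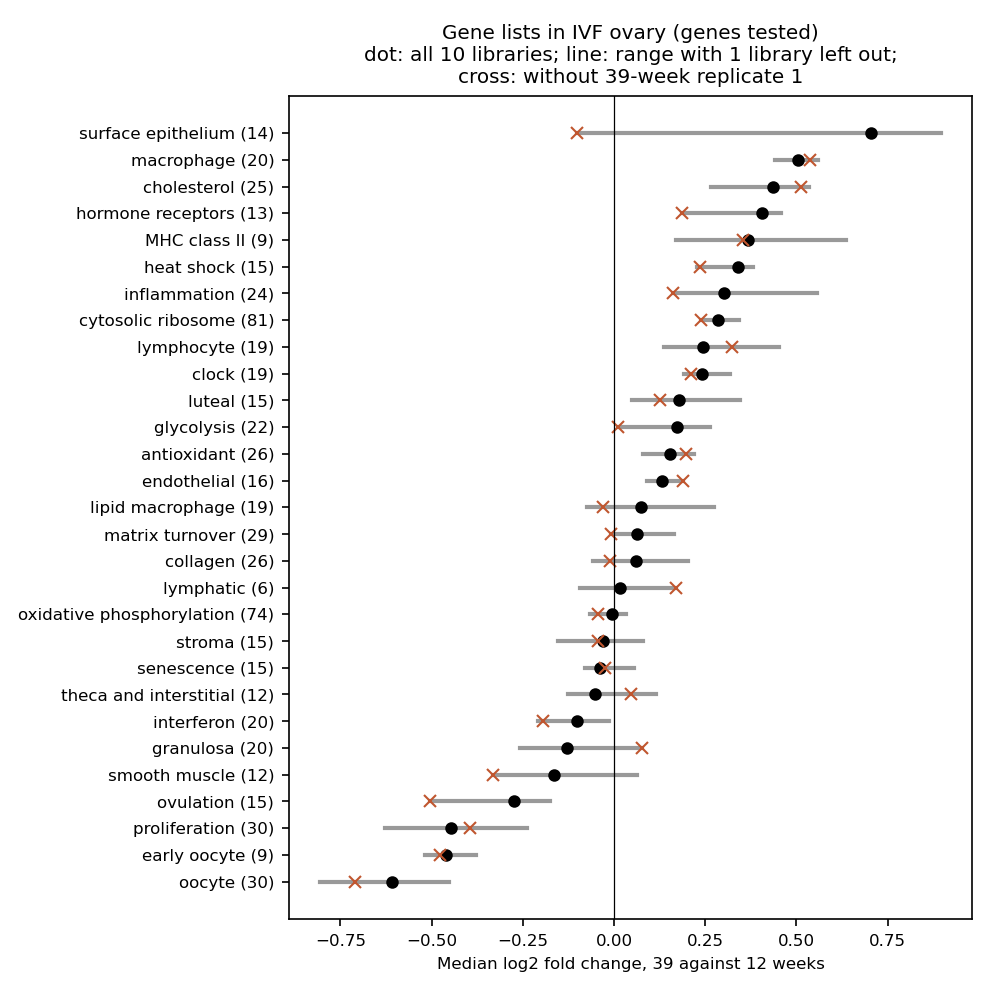
Median log2 fold change (39 against 12 weeks) of each gene list, with dots for all 10 IVF libraries, lines for the range when 1 library is left out, crosses for the fit without 39-week replicate 1, and the number of tested genes beside each name. The oocyte list (-0.61) and the macrophage list (0.50) lay on opposite sides of the median of all genes (0.03), over the whole range of left-out libraries.

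The age change was then compared between IVF and Natural ovaries in 1 model of all 19 libraries, with the test on the difference between the age changes. Of 19066 genes, 3 were called (0.0157%), and 3839 (20.1%) had an unadjusted p below 0.05. These 3 were Optn, an autophagy receptor, Ppp1r14b, an inhibitor of protein phosphatase 1, and Ybx3, a DNA- and RNA-binding protein. Levels in this fit differ slightly from those above because the libraries were scaled together. The summed oviduct level of the Natural libraries was 6057, 3155, 7834 and 3221 CPM at 12 weeks. At 39 weeks it was 235.5, 33.9, 24.8, 44.3 and 49.6 CPM, so age and oviduct level went together in Natural. The part of the oviduct level in these 3 calls was not tested.

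Optn rose in Natural ovaries, and in IVF its mean was nearly the same at both ages. In IVF it read 19.4, 21.6, 26.8, 21.1 and 17.2 CPM at 12 weeks and 16.7, 22.6, 24.4, 22.6 and 20.3 CPM at 39 weeks, with the ages overlapping. In Natural it read 14.6, 14.7, 12.9 and 15.5 CPM at 12 weeks and 33.8, 38.3, 35.0, 34.7 and 34.5 CPM at 39 weeks. The Natural ages were far apart, below the IVF range at 12 weeks and above it at 39 weeks. The log2 age change was 0.01 ± 0.12 in IVF and 1.29 ± 0.13 in Natural, a difference (IVF minus Natural) of -1.28 ± 0.17 (adjusted p = 0.0154). The call held in 15 of the 19 fits that each left out 1 library, with differences of -1.34 to -1.18.

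Ppp1r14b and Ybx3 had age changes of opposite sign in IVF and Natural ovaries. Ppp1r14b read 59.9, 52.9, 53.8, 66.1 and 47.6 CPM at 12 weeks and 75.7, 79.9, 86.0, 70.5 and 91.1 CPM at 39 weeks in IVF, where older ovaries were all higher. In Natural it read 69.7, 63.6, 59.2 and 67.8 CPM at 12 weeks and 52.3, 47.3, 56.6, 48.5 and 44.7 CPM at 39 weeks, and older ovaries were all lower. The age changes were 0.53 ± 0.10 and -0.38 ± 0.10, which differed by 0.91 ± 0.14 (adjusted p = 0.0294). In the fit of the IVF ovaries alone, Ppp1r14b was not called (log2 fold change 0.53 ± 0.11, adjusted p = 0.0505) except without 39-week replicate 1 (0.55, adjusted p = 0.0240). Ybx3 read 123, 126, 140.4, 139.9 and 127 CPM at 12 weeks and 180.5, 174, 173, 162 and 188 CPM at 39 weeks in IVF, again without overlap. The Natural values of Ybx3 were 146, 138, 127 and 129 CPM at 12 weeks and 114, 113, 129.6, 110.3 and 111 CPM at 39 weeks, which overlapped. Its age changes were 0.42 ± 0.07 in IVF and -0.22 ± 0.07 in Natural, a difference of 0.64 ± 0.10 (adjusted p = 0.0294). The calls held in 10 and 9 of the 19 leave-one-out fits.

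For the genes leading the IVF change, the difference from Natural was not called. The Natural log2 age change was -0.83 for Zp2, -1.11 for Zp3 and -0.81 for Npm2, 0.56 for Laptm5 and 0.84 for Vwf, all on the side of the IVF value. These genes were picked by their change in IVF, so their sizes in IVF and Natural are not compared on equal terms. Over the whole oocyte list the median was -0.60 in IVF and -0.76 in Natural. It was 0.50 and 0.43 for the macrophage list and 0.13 and 0.60 for the endothelial list. Gpnmb had 0.45 in Natural, and its difference of 1.43 ± 0.52 had an adjusted p of 0.154. Among the named genes, values of opposite sign without a called difference were seen for several, of which only some are given here. They included Slc2a1 (-1.30 in Natural, difference 1.58 ± 0.34, adjusted p = 0.0709), a (0.79, adjusted p = 0.0836), Star (1.22, adjusted p = 0.210) and Esr1 (-0.81, adjusted p = 0.123). Ovgp1 had 0.28 in IVF and -7.33 in Natural in this model (difference 7.61 ± 2.89, adjusted p = 0.166). Cdh13, an adhesion protein that binds LDL and adiponectin, read 4.12, 5.45, 2.82, 4.57 and 7.34 CPM at 12 weeks and 19.3, 15.4, 4.57, 6.72 and 6.37 CPM at 39 weeks in IVF, where the ages overlapped (log2 fold change 1.10 ± 0.43, adjusted p = 0.194), against -1.11 in Natural (adjusted p of the difference 0.0836).

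Lists whose medians had opposite signs in the shared model included ribosomal protein genes, heat shock genes and glycolysis genes. The medians were 0.29 in IVF and -0.20 in Natural for the cytosolic ribosome. Of 83 genes, 62 had an unadjusted p of the difference below 0.05 (20.1% of all genes) and 0 were called. These genes were read in the same libraries, so the 62 are not separate results. The medians were 0.34 and -0.52 for heat shock genes and 0.18 and -0.48 for glycolysis genes. The oviduct list had a Natural median of -4.45, and its part in these differences was not tested.

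**Figure D5:**
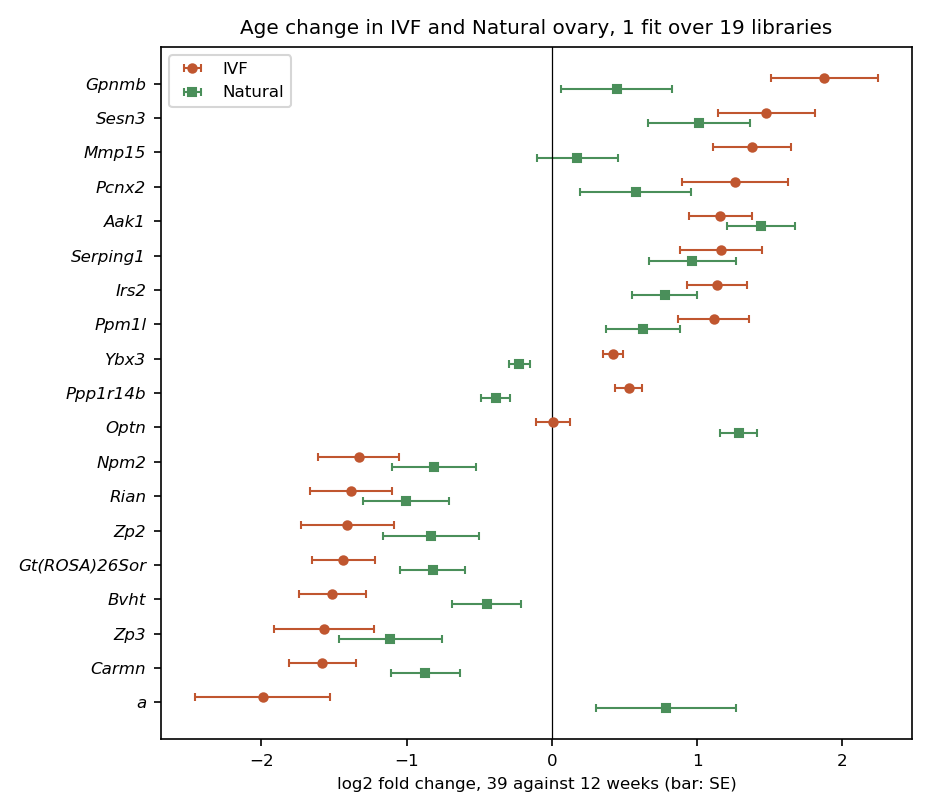
Log2 fold change (39 against 12 weeks, x axis) in IVF and in Natural ovaries, from the model of 19 libraries, with points for the estimate and bars for the SE. Shown are the genes with the largest rises and falls in IVF, and Optn, Ppp1r14b and Ybx3, whose age change was called different. The SE bars of some other genes, such as a, Gpnmb and Mmp15, also did not overlap, without a called difference.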

How the data were processed

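RNA was measured in whole-ovary pieces by poly(A)-selected, stranded RNA-seq. The authors deposited the number of reads per gene as raw counts without normalization, for 35976 gene names, of which 27 had turned into numbers and were kept as they stood. Per the submitters' processing notes the tools included Trimmomatic (0.32), STAR (2.3.0e) and featureCounts (1.5.0) with mm10, and the strand setting of the counting was not given in the sources used here, so reads of overlapping antisense genes may be shared. Both adult ovary tables were joined by gene name.

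The 5 IVF ovaries of 39 weeks were compared with the 5 of 12 weeks by edgeR (4.0.16) in R (4.3.3), with TMM factors, filterByExpr, two-sided quasi-likelihood tests and Benjamini-Hochberg adjustment over all 17449 tested genes. The standard error was the log2 fold change over the square root of F. The difference of the age change between IVF and Natural was an interaction term over 19 libraries. Steps were tested on simulated data.

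The genes and lists were chosen with earlier results of these data known. Named genes were the 8 largest rises and 8 largest falls among called genes that did not overlap and reached a mean of 10 CPM, the lead genes of each list and its 2 called genes with the smallest adjusted p, Ovgp1, Star, Esr1, Gdf9, Hfm1, Spata22, Cdh13 and Slc2a1, and genes called in the interaction. The rule also asked that a call hold in every leave-one-out fit, which no gene met, so that condition was dropped. Some genes that the rule names are not reported here. Further genes in the text were chosen after their values were seen, with the lists on insulin, mTOR, Notch, coregulators, chromatin, microRNA silencing, splicing, host genes and the Dlk1-Dio3 region.

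Alternatives were DESeq2 (1.42.0), RLE and upper quartile factors, other filters, limma-voom (limma 3.58.1) with sample weights, robust fitting, counts thinned to 2839022 per library, the replicate number as a block, each library left out, the oviduct level as a covariate, and the fit over 19 ovaries. Leaving out the 3 libraries highest in oviduct genes and correcting for transcript length were added after seeing the data. Among the 20 pairs of IVF libraries of the same age, none held counts that matched within sampling noise. Total counts set the precision for weakly expressed genes, most of all in 12-week replicate 4.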

Additional observations from a re-analysis of the deposited data

Results flagged for a closer look

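Single libraries stood apart from the other 4 of their age in 10 of 90 groups of 5 values examined with Dixon's criterion, and chance alone marks about 1 in 20 groups. At 39 weeks, replicate 1 had a summed oviduct level of 9503 CPM, an Ovgp1 level of 6695 CPM and a C3 level of 4508 CPM. The summed fat cell level was 3635 CPM in 12-week replicate 5 and 1884 CPM in 39-week replicate 5, and the summed red blood cell level was 459.7 CPM in 12-week replicate 5. Vwf was 22.8 CPM in 39-week replicate 3, below the other older ovaries. Carmn was 7.75 CPM in 39-week replicate 2 and a was 11.3 CPM in 39-week replicate 4, each above the other older ovaries, and Kcnd2 was 9.75 CPM in 12-week replicate 2, above the other younger ones.

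The age change of 3 genes differed between IVF and Natural by the interaction test. The difference (IVF minus Natural, log2) was -1.28 for Optn, 0.91 for Ppp1r14b and 0.64 for Ybx3. Their causes were not tested.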

How the results depend on the processing

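All 223 called genes had the same sign under every one of the 24 alternatives that gave them a value, while the number of calls varied widely. The counts (higher and lower) were 955 and 546 with DESeq2, 375 and 337 with DESeq2 at a fold of at least 1.5, 74 and 52 with edgeR at that fold, 192 and 77 with RLE size factors, 42 and 70 with upper quartile factors, 159 and 83 with a mean of at least 1 CPM, 155 and 68 with robust fitting, and 1020 and 715 with limma-voom and sample weights. They were 0 and 0 without a filter on low counts (3797 genes at an unadjusted p below 0.05), 38 and 27 at equal depth, 779 and 430 in the fit over 19 ovaries, 522 and 460 with the oviduct level as a covariate, 481 and 427 without the shallowest library and the library highest in oviduct genes, 1 and 0 without the 3 libraries highest in oviduct genes, and 0 and 0 after the transcript length correction (2637 at an unadjusted p below 0.05). With 1 library left out, 0 to 798 genes were higher and 0 to 820 lower.

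With the replicate block, 0 genes were higher and 0 lower (2852 at an unadjusted p below 0.05). The correlations of same-numbered deviations were 0.32, -0.29, 0.16, 0.04 and -0.04, and only replicate 1 correlated best with its own number. These values cannot tell whether samples of the same number shared a litter or a processing step, and this was not tested.

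For the difference between IVF and Natural, 3 genes were called, against 1114 with DESeq2 (974 at a fold of at least 1.5), 10 with RLE size factors, 14 with upper quartile factors, 10 with a mean of at least 1 CPM, 221 with limma-voom, 6 at equal depth, 109 without both libraries above, 2 with the replicate block and 0 to 57 with 1 library left out. Ovgp1 had a log2 fold change of -7.13 without 39-week replicate 1 (adjusted p = 0.0352) and ranged from -7.13 to 0.80 over the libraries left out. Of 71 called genes followed by name, 740 of 1701 values under alternatives kept the call, 961 lost it and 0 reversed. Among 98 followed without a call, 132 of 2332 values changed sign, in 35 genes. The causes of these differences were not tested, beyond the fewer samples where libraries were left out. Upper quartile factors moved the median of all genes by less than 0.1 on the log2 scale. Depth limits genes with few reads, most of all in 12-week replicate 4 (2839022 counts).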
